A study of Mus musculus with 6 samples.

Results

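The genes of double-strand break repair were described here as 29 members, each placed by the genomic bin that held its start in a Hi-C data set of mouse B-cell progenitors. The 29 starts fell in 29 different bins of about 100 kb, out of 24067 autosomal bins, and all 29 were among the 23644 bins with enough contacts to be fitted. Members were taken as a list of gene names, which was chosen with earlier results of these data known. They comprised 9 genes of end joining, 11 genes of break sensing and signalling, and 9 genes of homologous recombination, mismatch repair and excision repair.

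A double-strand break can be rejoined end to end, or copied from a sister chromatid by homologous recombination. In developing lymphocytes the RAG recombinase cuts the antigen receptor genes, and the end-joining proteins close these programmed breaks, so the pathway is needed to assemble the immunoglobulin heavy chain. Signalling proteins around the break hold its ends and restrain their resection, and mismatch and uracil repair proteins act later in B cells, when antibody genes are mutated and switched.

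Mice of 3 genotypes on a C56BL/6 background (as the labels spell it) were compared, with 2 biological replicates each. Erg KO cells carried Rag1CreT/+ and Erg fl/fl alleles, so that Cre expressed from Rag1 deleted Erg, an ETS family transcription factor, in lymphoid progenitors (1 female and 1 male library). CreT control cells carried Rag1CreT/+ alone (2 female libraries), and Erg fl/fl control cells carried the floxed alleles without Cre (1 female and 1 male library). Bone marrow depleted of lineage-positive cells had been kept for 8 days on OP9 stroma with SCF, IL7 and FL in all 6 libraries, B220+ cells were then selected, and contacts were read by in situ Hi-C. The study that reported the data describes its Hi-C comparison as Erg-deficient pre-proB cells against wild-type proB cells. Loss of Erg and developmental stage therefore cannot be told apart here. A bulk contact count does not separate a change inside every cell from a change in the mixture of cells, and any OP9 cells carried over are also of mouse origin.

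The libraries held 57259415 to 58335904 read pairs in Erg KO, 62155453 to 68085468 in CreT and 29014581 to 43924865 in Erg fl/fl cells. Contacts between chromosomes made up 32.3% and 34.6% of autosomal read pairs in the Erg KO libraries, against 21.6% to 26.8% in the 4 controls. Across all 23644 bins the change of local contacts in Erg KO fell steeply with base composition (Pearson r = -0.83 with the G+C content of the bin, a description over neighbouring bins that share libraries). The deviation of a library from the mean of the 4 controls correlated with G+C content at -0.83 and -0.81 in the Erg KO libraries, -0.33 and -0.36 in CreT, and -0.73 and 0.70 in Erg fl/fl replicates 1 and 2, so Erg fl/fl replicate 2 stood apart from its own replicate. That mean includes each control itself, so the 4 control values depend on each other and are not measured like those of Erg KO. Compartment scores averaged over 12 B-lineage marker bins were 0.65 to 0.73 in Erg KO against 0.77 to 0.89 in the controls. Over 12 stromal marker bins they were 0.38 to 0.58 against 0.33 to 0.44, so the ranges overlapped. The median change was -0.12 over the B-lineage and 0.16 over the stromal bins. Over 10 T-lineage and over 10 myeloid marker bins it was -0.03. Calls in either direction were made at 0 of the 12 B-lineage and 2 of the 12 stromal bins, and at 0 T-lineage and 0 myeloid bins. Of all bins 1.38% fell and 1.5% rose in this score. The part that other cells played in the results was not tested.

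Local contacts were the read pairs that joined a bin to others 200 kb to 2 Mb away, scaled by TMM and given as CPM relative to all local contacts of the library, replicate 1 before replicate 2. In Erg KO they fell at 22 of the 29 members and rose at 2, with 5 not called at an adjusted p below 0.05 (edgeR, quasi-likelihood test with group and sex), where 33.2% of all bins fell and 34.3% rose. The median log2 fold change over the members was -0.30, from -0.56 at Xrcc6 to 0.44 at Xrcc4, and the median over all bins was 0.01. Both Erg KO libraries lay below all 4 controls at 22 members and above all 4 at 2, against 33.7% and 35.2% of all bins. Scaled to all autosomal read pairs in place of TMM, which put the median of all bins at -0.39, 27 members fell and 0 rose, with a member median of -0.70. No share of all bins called is given for this scaling, so the 27 cannot be set against it. Set against the CreT control alone, 21 members fell and 1 rose (30.1% and 30.2% of all bins). The CreT group has no male library. Without the sex term 6 fell and 0 rose (median -0.22, all bins 0.01). With the replicate number as a block 12 fell and 1 rose (median -0.22, all bins 0.01). No share of all bins called is given for either fit. Against the Erg fl/fl control alone 20 fell and 2 rose (31.5% and 32% of all bins). These comparisons share the Erg KO libraries. Without Erg fl/fl replicate 2 the member median against both controls was -0.26. Erg KO replicate 2 is then the only male, so the sex term takes it out too, and 1 Erg KO library is left in the contrast. Between CreT and Erg fl/fl cells 0 members were called with edgeR and 0 with DESeq2 (0% of all bins with edgeR), and 1 member had an unadjusted p below 0.05, where 9.23% of all bins did.

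**Figure D1:**
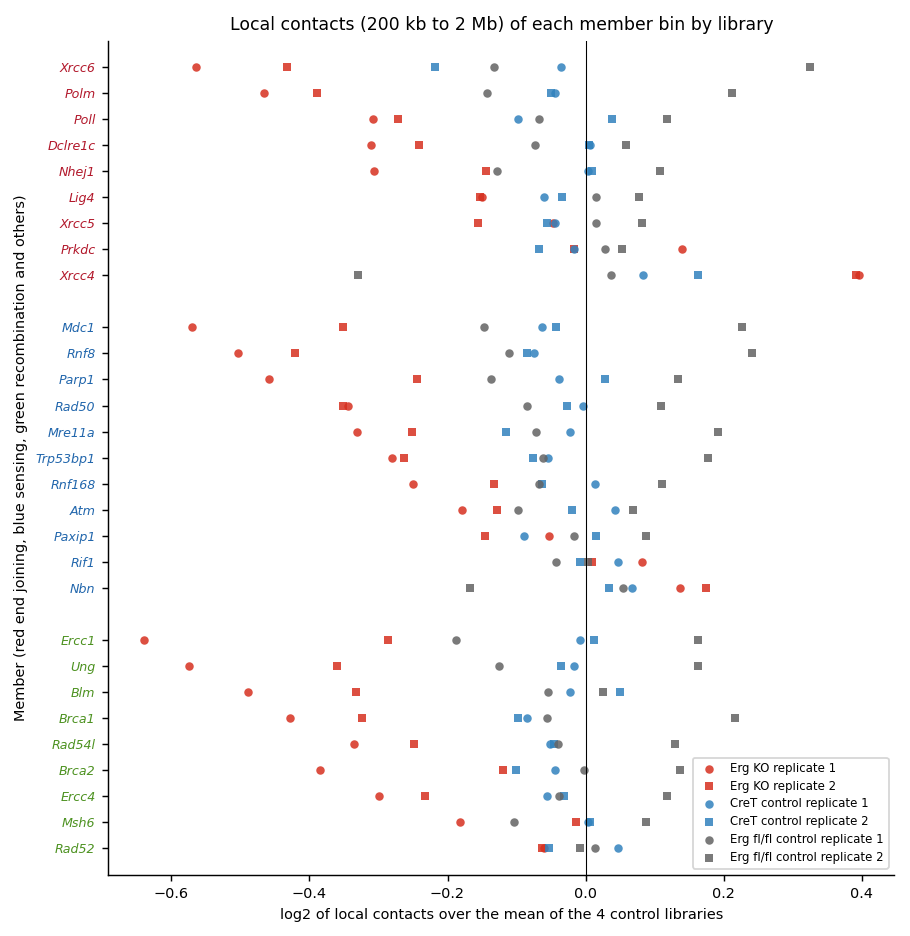
Local contacts of each member bin in the 6 libraries, as log2 of the library value over the mean of the 4 controls. Each point is 1 library (red Erg KO, blue CreT, grey Erg fl/fl; circles replicate 1, squares replicate 2); both red points lie left of all control points at 22 members and right of them at Xrcc4 and Nbn, and Erg fl/fl replicate 2 is the rightmost point in most rows.

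Of the 9 end-joining members 6 fell and 1 rose (33.2% and 34.3% of all bins). Xrcc6 and Xrcc5 encode Ku70 and Ku80, the ring that first grips a broken end. Local contacts of the Xrcc6 bin (chr15:81899833-82000103) were 52.7 and 57.8 in the Erg KO libraries, against 76.1 and 67.0 in the CreT and 71.1 and 97.7 in the Erg fl/fl controls. The log2 fold change was -0.56 ± 0.07 (SE; edgeR, adjusted p = 9.77e-07), the lowest of the 29 members, and both Erg KO libraries were below every control. Xrcc6 starts in this bin by 1 transcript only, and most of its transcripts start in the next bin, where the change was -0.49 ± 0.06 (SE; edgeR, adjusted p = 7.45e-07). The Xrcc5 bin had 50.5 and 46.8 in the Erg KO libraries, against 50.6 and 50.2 in the CreT and 52.7 and 55.2 in the Erg fl/fl controls. Its log2 fold change was -0.09 ± 0.06 (SE; edgeR, adjusted p = 0.189), and Erg KO replicate 1 lay within the control values.

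Prkdc and Dclre1c encode DNA-PKcs, the kinase recruited by Ku, and Artemis, the nuclease that opens the hairpin ends left by RAG. Prkdc had 50.5 and 45.4 in the Erg KO libraries, against 45.3 and 43.8 in the CreT and 46.8 and 47.6 in the Erg fl/fl controls. The change was 0.08 ± 0.06 (SE; edgeR, adjusted p = 0.265), 1 of the 3 highest among members although not called, and the groups overlapped. Dclre1c had 44.6 and 46.8 in the Erg KO libraries, against 55.6 and 55.5 in the CreT and 52.6 and 57.6 in the Erg fl/fl controls. Its log2 fold change was -0.30 ± 0.06 (SE; edgeR, adjusted p = 1.90e-04), with both Erg KO libraries below all controls.

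Xrcc4 and Lig4 form the ligase complex that seals the ends, and Nhej1 encodes XLF, which aligns them. The Xrcc4 bin (chr13:89999409-90099390) ran opposite to the other end-joining members that were called, with 51.5 and 51.4 in the Erg KO libraries, against 41.5 and 43.9 in the CreT and 40.2 and 31.2 in the Erg fl/fl controls. Its log2 fold change was 0.44 ± 0.07 (SE; edgeR, adjusted p = 2.59e-05), the highest of the 29 members. Both Erg KO libraries were above every control, and Erg fl/fl replicate 2 was the lowest library. Scaled to all autosomal read pairs it was at 0.05 and not called (edgeR, adjusted p = 0.761), against the median of -0.39 over all bins. Lig4 had 44.2 and 44.1 in the Erg KO libraries, against 47.0 and 47.9 in the CreT and 49.6 and 51.8 in the Erg fl/fl controls, a log2 fold change of -0.16 ± 0.06 (SE; edgeR, adjusted p = 0.0304) that was not called when any library other than Erg fl/fl replicate 1 was left out (adjusted p = 0.0536 to 0.126 with edgeR). Nhej1 had 32.6 and 36.4 in the Erg KO libraries, against 40.3 and 40.5 in the CreT and 36.8 and 43.4 in the Erg fl/fl controls. Its change was -0.27 ± 0.07 (SE; edgeR, adjusted p = 0.00168), and Erg KO replicate 2 came just under the lowest control.

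Poll and Polm encode the family X polymerases that fill gaps at the joined ends. Poll had 64.1 and 65.7 in the Erg KO libraries, against 74.1 and 81.5 in the CreT and 75.7 and 86.1 in the Erg fl/fl controls. Its log2 fold change was -0.32 ± 0.06 (SE; edgeR, adjusted p = 1.08e-04). Polm had 51.8 and 54.7 in the Erg KO libraries, against 69.4 and 69.2 in the CreT and 64.8 and 82.9 in the Erg fl/fl controls, a change of -0.48 ± 0.06 (SE; edgeR, adjusted p = 2.05e-06), the second steepest fall of the end-joining members. At both genes the Erg KO libraries lay apart from and below the controls.

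Among the 11 sensing and signalling members 8 fell and 1 rose (33.2% and 34.3% of all bins). Mre11a, Rad50 and Nbn encode the complex that tethers broken ends and activates Atm, the kinase at the head of the response. Mre11a had 51.9 and 54.8 in the Erg KO libraries, against 64.3 and 60.3 in the CreT and 62.1 and 74.6 in the Erg fl/fl controls, with a log2 fold change of -0.33 ± 0.06 (SE; edgeR, adjusted p = 9.48e-05). Rad50 had 53.9 and 53.6 in the Erg KO libraries, against 68.3 and 67.2 in the CreT and 64.5 and 73.8 in the Erg fl/fl controls, and changed by -0.37 ± 0.06 (SE; edgeR, adjusted p = 2.27e-05). Nbn was the second member that rose. Its bin had 43.0 and 44.1 in the Erg KO libraries, against 41.0 and 40.0 in the CreT and 40.6 and 34.8 in the Erg fl/fl controls. The log2 fold change was 0.18 ± 0.07 (SE; edgeR, adjusted p = 0.0336), and both Erg KO libraries stood above the controls. Its call was lost without either CreT replicate and without the second replicate of Erg KO or of Erg fl/fl (0.08 in both fits). These last fits are not separate checks, as leaving out either male library makes the sex term take out the other. Atm had 31.7 and 32.9 in the Erg KO libraries, against 37.0 and 35.5 in the CreT and 33.6 and 37.7 in the Erg fl/fl controls. The change was -0.18 ± 0.07 (SE; edgeR, adjusted p = 0.0347), with the groups close together and the call lost without Erg KO replicate 2, either CreT replicate or Erg fl/fl replicate 2 (adjusted p = 0.0822 to 0.156).

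Mdc1 binds the phosphorylated histone at the break and brings Rnf8, a ubiquitin ligase, which is followed by Rnf168. Mdc1 had 34.1 and 39.7 in the Erg KO libraries, against 48.5 and 49.1 in the CreT and 45.7 and 59.2 in the Erg fl/fl controls. The log2 fold change was -0.53 ± 0.07 (SE; edgeR, adjusted p = 1.01e-06), the steepest of the signalling members. Rnf8 had 54.3 and 57.5 in the Erg KO libraries, against 73.1 and 72.6 in the CreT and 71.2 and 91.0 in the Erg fl/fl controls, a change of -0.51 ± 0.06 (SE; edgeR, adjusted p = 7.44e-07), and with Blm was 1 of 2 members that stayed called in the same direction under every alternative run. Rnf168 had 64.1 and 69.5 in the Erg KO libraries, against 76.9 and 72.9 in the CreT and 72.7 and 82.2 in the Erg fl/fl controls. Its change was -0.23 ± 0.06 (SE; edgeR, adjusted p = 0.0014). All 3 bins had both Erg KO libraries below the controls, and Erg fl/fl replicate 2 was the highest library at each.

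Trp53bp1 encodes 53BP1, which with Rif1 and Paxip1 (PTIP) holds back resection and so favours end joining. Trp53bp1 had 47.0 and 47.6 in the Erg KO libraries, against 55.0 and 54.2 in the CreT and 54.7 and 64.6 in the Erg fl/fl controls, a log2 fold change of -0.30 ± 0.06 (SE; edgeR, adjusted p = 3.18e-04), with no overlap between groups. Rif1 had 49.2 and 46.8 in the Erg KO libraries, against 48.0 and 46.2 in the CreT and 45.1 and 46.6 in the Erg fl/fl controls. It changed by 0.05 ± 0.06 (SE; edgeR, adjusted p = 0.489) and its groups overlapped. Paxip1 had 49.1 and 46.1 in the Erg KO libraries, against 47.9 and 51.5 in the CreT and 50.3 and 54.1 in the Erg fl/fl controls. Its change was -0.10 ± 0.07 (SE; edgeR, adjusted p = 0.191), with Erg KO replicate 1 inside the control range. Parp1, whose product adds poly(ADP-ribose) at breaks, had 47.9 and 55.6 in the Erg KO libraries, against 64.1 and 67.1 in the CreT and 59.9 and 72.3 in the Erg fl/fl controls. The log2 fold change there was -0.41 ± 0.06 (SE; edgeR, adjusted p = 5.66e-06), with both Erg KO libraries below the controls.

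Of the 9 members of homologous recombination, mismatch and excision repair 8 fell and 0 rose (33.2% and 34.3% of all bins). Brca1 promotes resection of the ends, and Brca2 acts in homologous recombination after it. Brca1 had 45.7 and 49.1 in the Erg KO libraries, against 58.0 and 57.4 in the CreT and 59.1 and 71.4 in the Erg fl/fl controls, and a log2 fold change of -0.42 ± 0.06 (SE; edgeR, adjusted p = 6.68e-06). Brca2 had 40.9 and 49.1 in the Erg KO libraries, against 51.7 and 49.8 in the CreT and 53.3 and 58.6 in the Erg fl/fl controls. Its change was -0.30 ± 0.06 (SE; edgeR, adjusted p = 2.91e-04), with Erg KO replicate 2 only slightly below CreT replicate 2. Rad54l, a DNA translocase of homologous recombination, had 53.2 and 56.5 in the Erg KO libraries, against 64.8 and 65.0 in the CreT and 65.3 and 73.4 in the Erg fl/fl controls. The log2 fold change was -0.32 ± 0.06 (SE; edgeR, adjusted p = 6.21e-05). Rad52, the annealing protein, was the 1 member of this class not called. It had 63.5 and 63.4 in the Erg KO libraries, against 68.5 and 63.8 in the CreT and 66.8 and 65.9 in the Erg fl/fl controls, and changed by -0.06 ± 0.06 (SE; edgeR, adjusted p = 0.379), with very little spread among the 6 libraries.

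Blm encodes the helicase of Bloom syndrome, which acts in end resection and in resolving recombination intermediates without crossing over. The Blm bin (chr7:80499799-80599988) had 57.5 and 64.1 in the Erg KO libraries, against 79.5 and 83.6 in the CreT and 77.8 and 82.2 in the Erg fl/fl controls. The log2 fold change was -0.44 ± 0.06 (SE; edgeR, adjusted p = 1.61e-06), and the groups did not overlap. Ercc1 and Ercc4 (XPF) form a nuclease that cuts at junctions of single and double strands. Ercc1 had 38.1 and 48.6 in the Erg KO libraries, against 59.0 and 59.8 in the CreT and 52.1 and 66.4 in the Erg fl/fl controls, a change of -0.55 ± 0.06 (SE; edgeR, adjusted p = 2.98e-07), the second steepest fall of the 29 members. Ercc4 had 48.8 and 51.2 in the Erg KO libraries, against 57.9 and 58.8 in the CreT and 58.6 and 65.2 in the Erg fl/fl controls. It changed by -0.29 ± 0.06 (SE; edgeR, adjusted p = 2.27e-04), again with no overlap.

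Msh6 is a mismatch sensor, and Ung removes uracil from DNA, including that left by the deaminase AID in B cells. Msh6 had 60.2 and 67.6 in the Erg KO libraries, against 68.4 and 68.6 in the CreT and 63.5 and 72.5 in the Erg fl/fl controls. The change was -0.14 ± 0.06 (SE; edgeR, adjusted p = 0.0311), Erg KO replicate 2 lay inside the control range, and the call was lost without Erg KO replicate 1 or either CreT replicate (adjusted p = 0.0634 to 0.145 with edgeR). Ung had 50.5 and 58.6 in the Erg KO libraries, against 74.4 and 73.4 in the CreT and 69.0 and 84.2 in the Erg fl/fl controls. Its log2 fold change was -0.53 ± 0.06 (SE; edgeR, adjusted p = 2.32e-07), the second steepest fall of the class after Ercc1.

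Promoter windows are shown for 4 members that the results turn on: Xrcc4 as the member that rose most, Blm as a fall that stayed called throughout, and Dclre1c and Ercc1 because they hold CCGGAAGT, a strong form of the ETS family motif. The windows run from 250 bases before to 50 bases after the gene start in RefSeq on GRCm38.p6, 5′ to 3′ on the gene's strand, with motif matches in capitals. They cover chr13:90089559-90089858, minus strand (Xrcc4), chr7:80534949-80535248, minus strand (Blm), chr2:3423881-3424180, plus strand (Dclre1c) and chr7:19344821-19345120, plus strand (Ercc1).
Xrcc4: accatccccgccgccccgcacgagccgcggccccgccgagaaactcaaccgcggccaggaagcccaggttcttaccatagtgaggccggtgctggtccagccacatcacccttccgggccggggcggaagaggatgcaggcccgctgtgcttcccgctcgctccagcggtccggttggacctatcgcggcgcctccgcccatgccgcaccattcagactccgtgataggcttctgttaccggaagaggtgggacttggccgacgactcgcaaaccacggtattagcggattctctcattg
Blm: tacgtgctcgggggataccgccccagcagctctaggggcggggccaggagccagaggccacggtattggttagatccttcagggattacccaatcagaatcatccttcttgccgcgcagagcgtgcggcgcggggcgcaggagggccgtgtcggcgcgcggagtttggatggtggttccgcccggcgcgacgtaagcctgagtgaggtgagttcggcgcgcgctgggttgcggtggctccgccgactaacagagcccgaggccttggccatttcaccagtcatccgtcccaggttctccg
Dclre1c: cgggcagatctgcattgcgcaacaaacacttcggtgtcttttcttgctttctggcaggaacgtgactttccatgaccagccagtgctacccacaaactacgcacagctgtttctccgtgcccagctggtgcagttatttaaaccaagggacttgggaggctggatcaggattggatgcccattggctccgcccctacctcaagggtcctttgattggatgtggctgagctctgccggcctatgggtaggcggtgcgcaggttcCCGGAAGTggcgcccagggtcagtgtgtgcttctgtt
Ercc1: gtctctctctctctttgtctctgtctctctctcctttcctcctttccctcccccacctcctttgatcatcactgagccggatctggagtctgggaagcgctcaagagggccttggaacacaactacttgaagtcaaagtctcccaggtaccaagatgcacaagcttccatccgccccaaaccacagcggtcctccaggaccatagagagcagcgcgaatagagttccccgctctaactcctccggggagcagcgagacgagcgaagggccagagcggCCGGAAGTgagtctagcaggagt
Searched on both strands, CCGGAAGT was found in windows of 4 of the 24 members with a RefSeq window (Dclre1c, Lig4, Rnf168 and Ercc1) and in 3.89% of all 32851 windows. A palindromic form of the EBF motif was in 0 of the 24 and in 0.904% of all windows. Members were counted by gene and the shares by window. Some genes, Lig4 among them, have several windows, so these figures are not like for like. The 2 motifs did not overlap in any member window, as the second was in none. A match is a string of letters and not a bound site.

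The member bins were richer in G+C than the genome (median 44.6%, from 37.3% at Xrcc4 to 52.1% at Ercc1, against 41.5% over all bins) and better covered (median total contacts 1.28 times that of the median bin). Over all bins the median log2 fold change of local contacts went from 0.50 in the lowest decile by G+C content to -0.46 in the highest, and from 0.44 to -0.43 over deciles of coverage. In the highest decile by G+C content, which held 8 members, 96.7% of bins fell. Set against the bins of their own decile by G+C content, 20 of the 29 members were lower than the decile's median, with a median difference of -0.07. Set against their decile by coverage, 12 of 29 were lower, with a median difference of 0.00.

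Xrcc4, with 37.3% G+C, lay 0.06 above the median of its decile by G+C content and 0.27 above that of its decile by coverage. Atm and Rad52, at 39.2% and 39.1% G+C, were the members furthest below bins of like composition (-0.44 and -0.32), although their own changes were small. Paxip1 (0.20), Nhej1 (0.19) and Poll (0.15) were furthest above. Xrcc6, Ercc1 and Ung, the steep falls, differed from their decile by -0.10, -0.08 and -0.07.

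**Figure D2:**
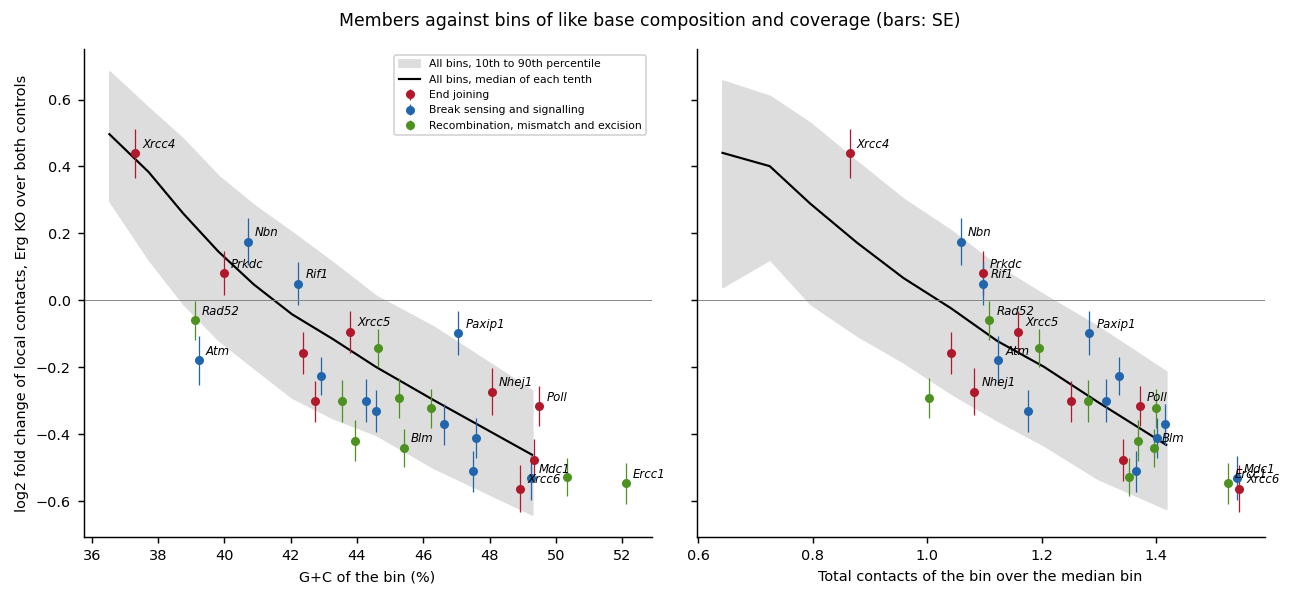
Log2 fold change of local contacts (Erg KO over both controls) against the G+C content of the bin in percent and its total contacts over the median bin. Points are members with SE bars, coloured by role; the line joins medians of deciles of all bins and the band spans their 10th to 90th percentile, and most members lie within the band along its downward slope.

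When the trend with G+C content was removed from each library before the fit, 9 members fell and 1 rose, against 17.8% and 15.1% of all bins, and the member median was -0.06 (all bins -0.01). The 9 were Dclre1c, Atm, Mre11a, Rnf8, Rnf168, Brca1, Brca2, Rad52 and Blm, with log2 changes from -0.39 at Atm to -0.13 at Rnf168, and the 1 that rose was Paxip1 (0.23 ± 0.06; edgeR, adjusted p = 0.00372). Xrcc4 was then at 0.02 (edgeR, adjusted p = 0.844) and Xrcc6 at -0.14 (adjusted p = 0.0662). With each bin scaled by its contacts to other chromosomes instead, 9 members fell and 1 rose, against 18.7% and 20.1% of all bins. These were Xrcc6, Lig4, Polm, Mdc1, Rnf8, Blm, Ercc1, Ercc4 and Ung among the falls, and Xrcc4 (0.46; edgeR, adjusted p = 7.34e-04) as the rise. Rnf8 and Blm fell under both corrections.

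End-joining members were compared with the recombination, mismatch and excision members. Their median log2 fold changes were -0.27 and -0.32, a difference of 0.05 that lay between 0.03 and 0.11 under all alternatives run. No test was made, as the members are a chosen list. The difference between the class medians of log2 local contacts was 0.00 and -0.27 in the Erg KO libraries, against -0.36 and -0.35 in CreT and -0.27 and -0.37 in Erg fl/fl cells, so both Erg KO libraries lay above the 4 controls, Erg KO replicate 2 only just above Erg fl/fl replicate 1. The 2 Erg KO libraries were further apart than the 0.05 between the classes. The end-joining bins also had less G+C (median 43.8% against 45.3%) and lower coverage (1.16 against 1.35 times the median bin). With the trend in G+C content removed the class medians were -0.03 and -0.06, and 5 of 9 end-joining and 8 of 9 recombination, mismatch and excision members lay below the median of their decile by G+C content. Sensing and signalling members had a median of -0.30, and 7 of 11 lay below.

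Split by distance, the fall was found on either side of 500 kb and thinned out further away. Contacts of 200 to 400 kb fell at 18 members and rose at 1 (28.8% and 29.3% of all bins), with a member median of -0.30. Contacts of 500 to 900 kb fell at 22 and rose at 2 (28.4% and 28% of all bins), with the lowest member median of the 5 classes, -0.41. Contacts of 1 to 2 Mb fell at 13 and rose at 2 (24% and 24%), median -0.25, and those of 2.1 to 10 Mb at 7 with 1 rise (17.1% and 19.4%), median -0.10. Contacts with other chromosomes fell at 17 members and rose at 0 (27% and 27.2% of all bins), median -0.16. Each class was scaled by its own TMM factors, so these values compare a member with other bins at the same distance.

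Single members differed by distance. Ercc1 changed by -0.91 ± 0.15 at 500 to 900 kb (edgeR, adjusted p = 1.99e-05), while at 1 to 2 Mb its -1.10 ± 0.47 was not called (adjusted p = 0.0547). Blm changed by -0.76 and -0.71 in the same classes, and its contacts with other chromosomes were at -0.05 (edgeR, adjusted p = 0.347). Xrcc4 rose in each class up to 2 Mb (0.36, 0.56 and 0.35) and was at -0.09 beyond and -0.01 between chromosomes. Prkdc, uncalled over 200 kb to 2 Mb, rose at 500 to 900 kb (0.35 ± 0.10; edgeR, adjusted p = 0.00462), and Rif1 rose at 1 to 2 Mb (0.32; adjusted p = 0.00377). Rad52 was the 1 member that rose at 2.1 to 10 Mb (0.22; adjusted p = 0.0191), and Mre11a had the steepest fall there (-0.49). Parp1 fell most in contacts with other chromosomes (-0.29).

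**Figure D3:**
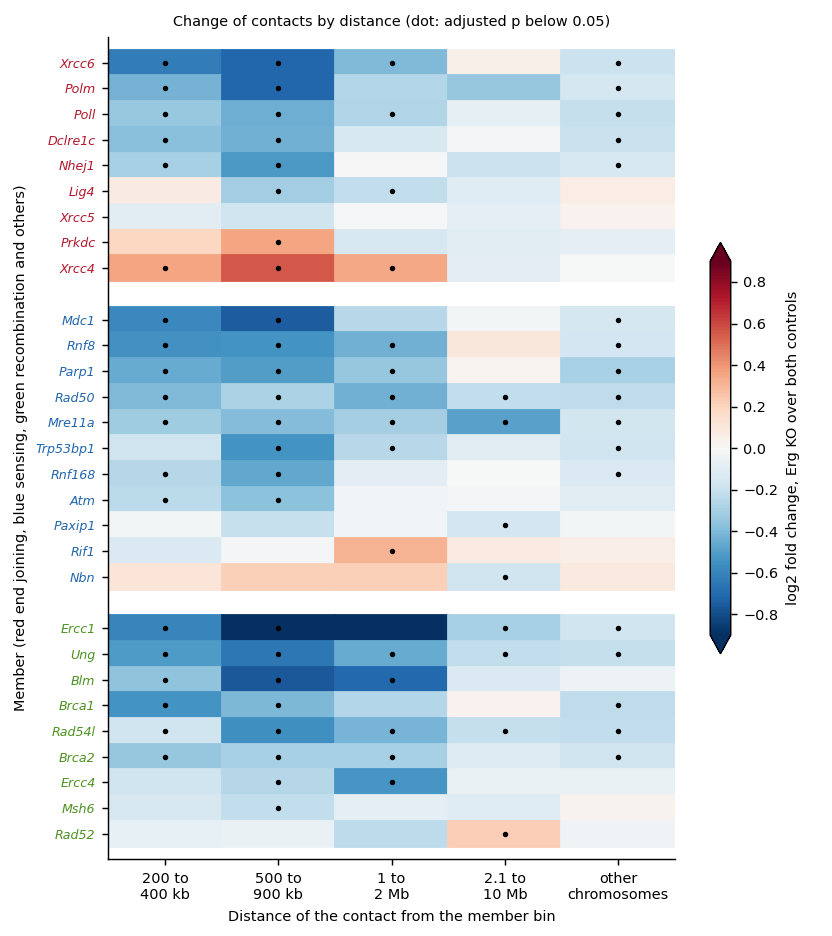
Log2 fold change of contacts (Erg KO over both controls) of each member bin by distance class; rows are members grouped by role, columns are distances, colour is the fold change clipped at 0.9 on either side, and a dot marks an adjusted p below 0.05. Blue cells are densest at 500 to 900 kb, and Xrcc4 is red in the 3 classes up to 2 Mb.

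The change was not limited to the member bins. Around end-joining members the median log2 fold change was -0.20 and -0.21 at 500 kb to the left and right, against -0.27 at the member bin. Around recombination, mismatch and excision members it was -0.50 and -0.37 at 500 kb, lower than the -0.32 at the members themselves, and around sensing members -0.12 and -0.34 against -0.30. Neighbouring bins share part of their local contacts, so these medians are not independent of each other.

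**Figure D4:**
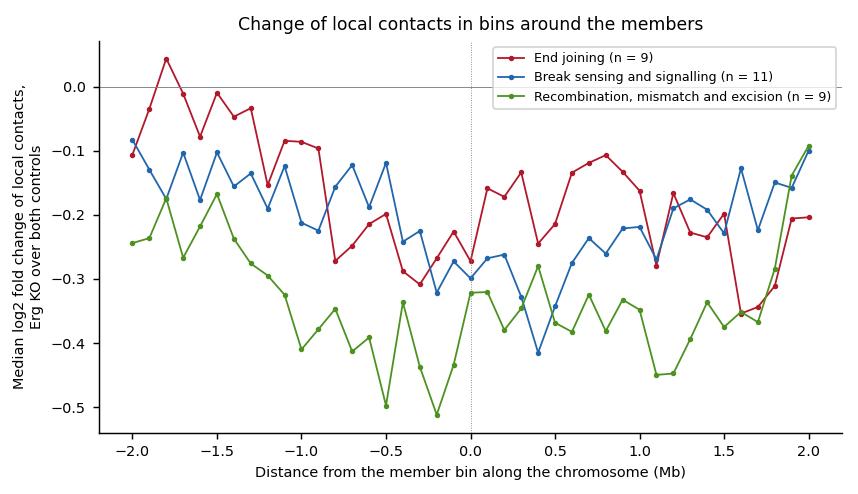
Median log2 fold change of local contacts (Erg KO over both controls) in bins up to 2 Mb on either side of the members, by role. The lines stay mostly below 0 across the window, with no dip confined to the member bin at distance 0.

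The insulation score is the log2 of the mean contact count between the 5 bins on either side of a bin over the chromosome mean, so a lower score means fewer contacts across the bin. In Erg KO it fell at 19 members and rose at 3 (limma with group and sex), where 28.4% of 23326 bins fell and 39.3% rose. The member median was -0.30 and that of all bins 0.08. Between CreT and Erg fl/fl cells 0 members were called (0% of all bins with limma), and 2 had an unadjusted p below 0.05, where 11.2% of all bins did. With the trend in G+C content removed from each library 13 members fell and 3 rose, against 22.5% and 19% of all bins, and the member median was -0.14.

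Besides Xrcc6, 5 end-joining bins lost contacts across them (28.4% of all bins fell). With the trend in G+C content removed 3 end-joining members still fell (Xrcc6, Xrcc5 and Dclre1c), where 22.5% of all bins did. Poll at -0.01 and Nhej1 at -0.05 were then not called (limma, adjusted p = 0.911 and 0.585). Xrcc6 scored -0.33 and -0.25 in the Erg KO libraries, against 0.26 and 0.15 in the CreT and 0.26 and 0.66 in the Erg fl/fl controls, a difference of -0.68 ± 0.08 (SE; limma, adjusted p = 5.11e-05), with a score below 0 in both Erg KO libraries alone. Xrcc5, uncalled in local contacts, scored -0.19 and -0.19 in the Erg KO libraries, against 0.09 and -0.01 in the CreT and 0.16 and 0.33 in the Erg fl/fl controls, a difference of -0.36 ± 0.08 (SE; limma, adjusted p = 0.00141). Its Erg KO scores were below 0 and below all controls. Poll scored 0.25 and 0.27 in the Erg KO libraries, against 0.57 and 0.51 in the CreT and 0.64 and 0.79 in the Erg fl/fl controls, a difference of -0.39 ± 0.06 (SE; limma, adjusted p = 2.50e-04), and Nhej1 0.55 and 0.84 in the Erg KO libraries, against 1.01 and 0.97 in the CreT and 0.94 and 1.10 in the Erg fl/fl controls, a difference of -0.37 ± 0.06 (SE; limma, adjusted p = 2.17e-04). Dclre1c scored 0.12 and 0.16 in the Erg KO libraries, against 0.26 and 0.27 in the CreT and 0.29 and 0.49 in the Erg fl/fl controls (-0.22 ± 0.07 SE; limma, adjusted p = 0.0132), and Polm 0.32 and 0.43 in the Erg KO libraries, against 0.46 and 0.56 in the CreT and 0.55 and 0.57 in the Erg fl/fl controls (-0.18 ± 0.06 SE; limma, adjusted p = 0.0254), the smallest fall of these and a rise of 0.19 once the trend in G+C content was removed (limma, adjusted p = 0.0451). Xrcc4 was the end-joining member that rose. Its scores were 0.74 and 0.68 in the Erg KO libraries, against 0.44 and 0.53 in the CreT and 0.37 and 0.08 in the Erg fl/fl controls, a difference of 0.40 ± 0.07 (SE; limma, adjusted p = 4.30e-04), and -0.11 with the trend removed (adjusted p = 0.166). Lig4 and Prkdc were not called (0.01 and 0.17).

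Mdc1 had the largest difference in insulation of all 29 members. It scored -0.96 and -0.81 in the Erg KO libraries, against -0.10 and -0.48 in the CreT and -0.16 and 0.32 in the Erg fl/fl controls, a difference of -0.86 ± 0.11 (SE; limma, adjusted p = 8.13e-05), with both Erg KO libraries far below the lowest control. Rnf8 scored -0.33 and -0.17 in the Erg KO libraries, against 0.20 and 0.10 in the CreT and 0.20 and 0.56 in the Erg fl/fl controls (-0.58 ± 0.08 SE; limma, adjusted p = 8.48e-05), again with the Erg KO scores alone below 0. Parp1 scored 0.70 and 0.91 in the Erg KO libraries, against 1.19 and 1.11 in the CreT and 1.08 and 1.41 in the Erg fl/fl controls (-0.46 ± 0.06 SE; limma, adjusted p = 5.94e-05), and Rnf168 0.74 and 0.77 in the Erg KO libraries, against 1.11 and 0.95 in the CreT and 1.06 and 1.39 in the Erg fl/fl controls (-0.41 ± 0.07 SE; limma, adjusted p = 4.52e-04). Trp53bp1 scored 0.03 and -0.12 in the Erg KO libraries, against 0.24 and 0.13 in the CreT and 0.30 and 0.38 in the Erg fl/fl controls, a difference of -0.30 ± 0.08 (SE; limma, adjusted p = 0.00403), with no overlap. The 2 signalling members that rose had the lowest mean control scores of the 29, that is the fewest contacts across their bins. Nbn scored -0.83 and -0.86 in the Erg KO libraries, against -1.02 and -1.07 in the CreT and -1.18 and -1.17 in the Erg fl/fl controls (0.27 ± 0.10 SE; limma, adjusted p = 0.0293), and Paxip1 -0.36 and -0.71 in the Erg KO libraries, against -0.85 and -0.78 in the CreT and -0.73 and -0.78 in the Erg fl/fl controls (0.30 ± 0.10 SE; limma, adjusted p = 0.0166); both calls were lost without Erg KO replicate 1 (0.24 and 0.11; limma, adjusted p = 0.108 and 0.430) or either CreT replicate. Atm, Mre11a, Rad50 and Rif1 were not called (-0.06, -0.13, -0.08 and -0.19). With the trend in G+C content removed, Atm and Rif1 were called falls (-0.35 and -0.20; limma, adjusted p = 0.00173 and 0.0391). Paxip1 still rose (0.57; limma, adjusted p = 6.49e-04), and Trp53bp1 and Nbn were not called (-0.18 and 0.13; limma, adjusted p = 0.0622 and 0.212).

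In the recombination, mismatch and excision class every member but Ercc1 fell, where 28.4% of all bins did. Brca1 scored -0.44 and -0.33 in the Erg KO libraries, against -0.02 and -0.14 in the CreT and -0.09 and 0.19 in the Erg fl/fl controls, a difference of -0.42 ± 0.08 (SE; limma, adjusted p = 7.69e-04). Ercc4 scored -0.41 and -0.26 in the Erg KO libraries, against -0.02 and -0.05 in the CreT and -0.06 and 0.09 in the Erg fl/fl controls (-0.36 ± 0.07 SE; limma, adjusted p = 0.00109), and Rad52, which had not changed in local contacts at the threshold, 0.73 and 0.88 in the Erg KO libraries, against 1.08 and 1.01 in the CreT and 1.13 and 1.29 in the Erg fl/fl controls (-0.36 ± 0.06 SE; limma, adjusted p = 2.04e-04). At each of these 3 bins the Erg KO scores lay below all controls. Ung scored 0.22 and 0.38 in the Erg KO libraries, against 0.59 and 0.63 in the CreT and 0.42 and 0.74 in the Erg fl/fl controls (-0.36 ± 0.06 SE; limma, adjusted p = 4.85e-04), and Rad54l -0.52 and -0.27 in the Erg KO libraries, against -0.16 and -0.24 in the CreT and -0.11 and 0.02 in the Erg fl/fl controls (-0.32 ± 0.08 SE; limma, adjusted p = 0.00332). Brca2 scored 0.11 and 0.39 in the Erg KO libraries, against 0.51 and 0.46 in the CreT and 0.48 and 0.58 in the Erg fl/fl controls (-0.30 ± 0.07 SE; limma, adjusted p = 0.00149). Msh6 had Erg KO scores just under 0 and control scores above it, with -0.08 and -0.02 in the Erg KO libraries, against 0.26 and 0.21 in the CreT and 0.12 and 0.27 in the Erg fl/fl controls (-0.29 ± 0.07 SE; limma, adjusted p = 0.003). Blm, with the highest mean control score of the 29, scored 1.06 and 1.28 in the Erg KO libraries, against 1.40 and 1.37 in the CreT and 1.26 and 1.43 in the Erg fl/fl controls (-0.24 ± 0.05 SE; limma, adjusted p = 0.00175), and Erg KO replicate 2 overlapped Erg fl/fl replicate 1. Ercc1 scored 0.72 and 0.98 in the Erg KO libraries, against 0.99 and 1.07 in the CreT and 0.76 and 0.83 in the Erg fl/fl controls, a difference of -0.10 ± 0.06 (SE; limma, adjusted p = 0.152), with the groups overlapping. With the trend in G+C content removed, 4 of the class still fell (Brca1, Brca2, Rad52 and Ercc4), where 22.5% of all bins did. Ercc1 then rose by 0.38 (limma, adjusted p = 0.00243). Rad54l, Blm, Msh6 and Ung were then not called (-0.09, -0.06, -0.14 and 0.06; limma, adjusted p = 0.0945 to 0.506).

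The compartment score is the leading component of each chromosome's contact correlation matrix, scaled to an SD of 1 and turned so that gene-rich bins are positive (compartment A). Of the 29 members 28 had a positive mean in the controls and 29 in Erg KO, with member medians of 1.31 in Erg KO and 1.25 in the controls. The score rose at 1 member and fell at 0 (limma), where 1.5% of all bins rose and 1.38% fell, and 4 members had an unadjusted p below 0.05, where 27.9% of all bins did. Both Erg KO libraries lay above all 4 controls at 6 members (Xrcc4, Poll, Polm, Mdc1, Paxip1 and Brca1), or at 15.5% of all bins.

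The 1 call was Xrcc4. Its scores were 0.55 and 0.58 in the Erg KO libraries, against 0.37 and 0.36 in the CreT and 0.10 and -0.08 in the Erg fl/fl controls. The difference was 0.39 ± 0.05 (SE; limma, adjusted p = 0.0489), with the Erg fl/fl libraries near 0 and the CreT libraries between them and Erg KO. Without CreT replicate 1 or 2 it was of like size and no longer called (0.40 and 0.39; limma, adjusted p = 0.182 and 0.126), and against either control alone it was not called (0.23 against CreT, adjusted p = 0.149; 0.55 against Erg fl/fl, adjusted p = 0.0666). Nbn, the next largest, scored 0.56 and 0.60 in the Erg KO libraries, against 0.35 and 0.56 in the CreT and 0.23 and 0.10 in the Erg fl/fl controls (0.28 ± 0.08 SE; limma, adjusted p = 0.117), and Prkdc 0.89 and 0.78 in the Erg KO libraries, against 0.67 and 0.71 in the CreT and 0.78 and 0.60 in the Erg fl/fl controls (0.18 ± 0.04 SE; limma, adjusted p = 0.0704). At both the lowest Erg KO library was close to the highest control. The largest decreases, none called, were at Brca2, with 0.45 and 0.57 in the Erg KO libraries, against 0.57 and 0.64 in the CreT and 0.55 and 0.56 in the Erg fl/fl controls (-0.09 ± 0.04 SE; limma, adjusted p = 0.264), at Ung, with 1.42 and 1.34 in the Erg KO libraries, against 1.39 and 1.36 in the CreT and 1.50 and 1.53 in the Erg fl/fl controls (-0.06 ± 0.04 SE; limma, adjusted p = 0.372), and at Trp53bp1, with 1.50 and 1.47 in the Erg KO libraries, against 1.46 and 1.48 in the CreT and 1.51 and 1.63 in the Erg fl/fl controls (-0.04 ± 0.04 SE; limma, adjusted p = 0.589). Paxip1 and Lig4 were the members closest to 0, with Erg KO means of 0.03 and 0.06.

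**Figure D5:**
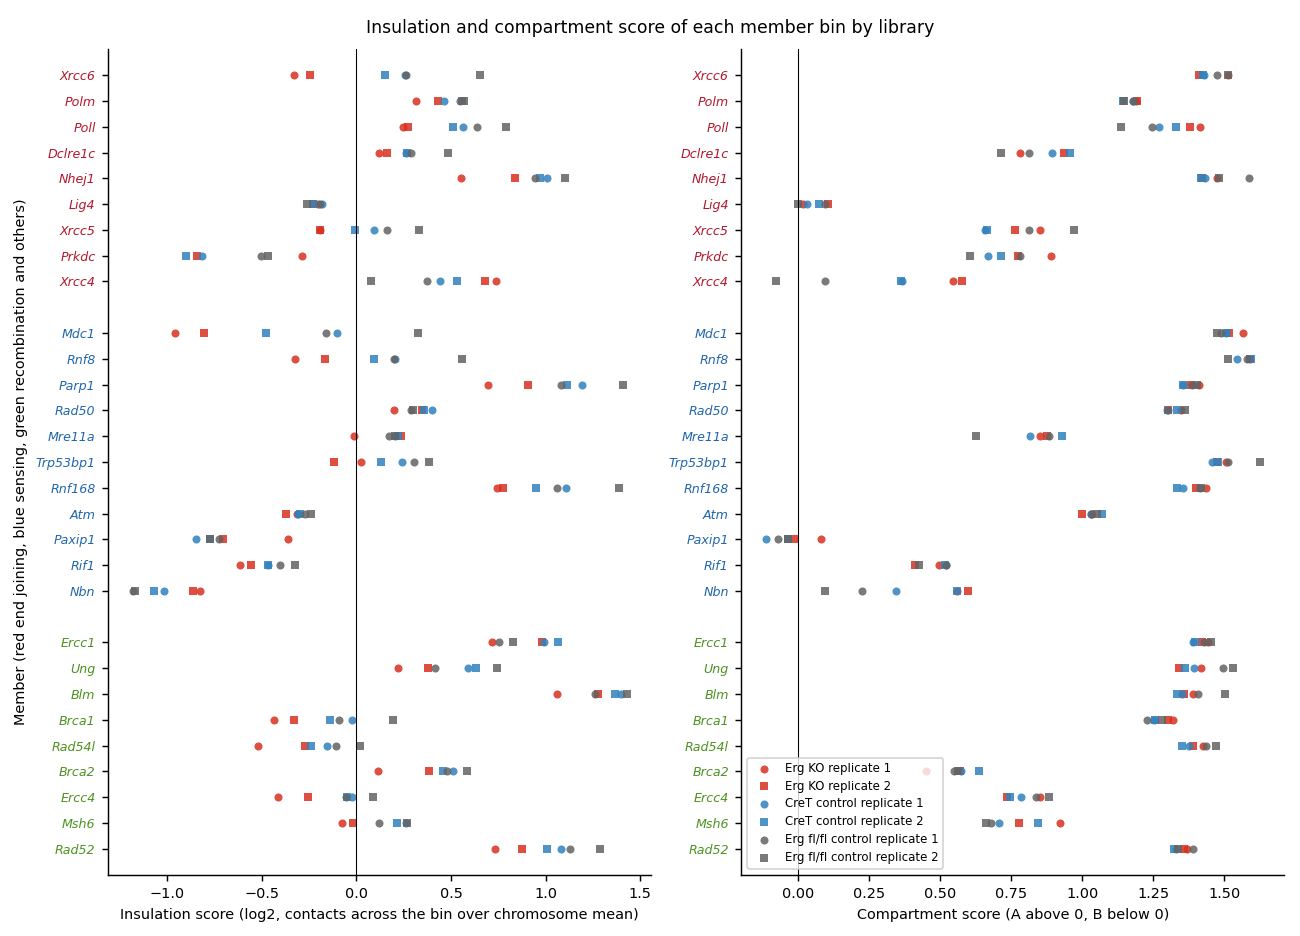
Insulation score (log2 over the chromosome mean) and compartment score of each member bin in the 6 libraries (red Erg KO, blue CreT, grey Erg fl/fl; circles replicate 1, squares replicate 2). Erg KO points lie left of the controls at most members in the insulation panel, with the largest fitted difference at Mdc1. Compartment scores stay above 0 apart from Paxip1 and 1 library of Xrcc4.

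At the level of single bin pairs, 2105 of the 756472 pairs tested had a member at 1 end, and all 2105 lay within a chromosome. In Erg KO 143 of them fell and 17 rose (edgeR), or 6.79% and 0.808%, where 3.08% and 3.15% of all pairs did. The calls depend on the fit: DESeq2 called 0 of the 2105 member pairs and 4165 of all pairs, and 104 member pairs had an unadjusted p below 0.05, where 4.82% of all pairs did. When any Erg KO or Erg fl/fl library was left out, edgeR called 0 pairs, members or not. Then 208 to 373 of the 2105 member pairs had an unadjusted p below 0.05, where 9.84% to 16.1% of all pairs did. Polm had the most falling pairs (16 of 40), followed by Xrcc6 (13 of 98), and the rises were mostly at Xrcc4 (7 of 50) and Prkdc (5 of 82). Of the tested pairs 2 joined members to each other, Xrcc5 with Nhej1 and Ercc4 with Prkdc, with 2 to 9 and 5 to 11 read pairs a library and no call (adjusted p = 0.974 and 0.957).

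The 10 called pairs with the smallest p all fell and lay at Ercc1 (3), Blm (3), Ung (2), Xrcc6 (1) and Rnf168 (1). Their values are loess-normalised read pairs. Ercc1 joined the bin 200 kb to its left, which holds Eml2 and Snrpd2, with 163 and 213 in Erg KO against 273 and 263 in CreT and 243 and 350.0 in Erg fl/fl (-0.71 ± 0.10 SE; edgeR, adjusted p = 8.58e-08). Contacts within the Ercc1 bin were 364 and 432 in Erg KO, against 493, 528, 517 and 623 in the controls (-0.51 ± 0.07; adjusted p = 1.86e-07), and with the adjoining bin 294 and 309 against 405, 367, 385 and 485 (-0.49 ± 0.08; adjusted p = 8.86e-06). All 3 pairs were lower in both Erg KO libraries than in any control, which their choice by smallest p favours.

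Blm joined a bin 800 kb to its left that holds Plin1, Mesp1 and Kif7 with 14.7 and 17.4 in Erg KO, against 47.6 and 32.4 in CreT and 45.4 and 63.8 in Erg fl/fl (-1.64 ± 0.28; edgeR, adjusted p = 1.49e-05), the largest fold change of the 10. Its pair with the Iqgap1 bin 300 kb to the right had 60.1 and 73.5 against 113, 109, 119 and 143 (-0.92 ± 0.15; adjusted p = 6.13e-06), and its pair 200 kb to the right 96.7 and 111 against 163, 167, 163 and 179 (-0.74 ± 0.13; adjusted p = 1.21e-05). Ung with the Foxn4 and Myo1h bin next to it had 144 and 171 in Erg KO, against 223, 242, 233 and 291 (-0.72 ± 0.10; adjusted p = 2.51e-07), and with the Coro1c bin 200 kb to the left 89.1 and 109 against 146, 142, 132 and 197 (-0.75 ± 0.13; adjusted p = 2.13e-05). Xrcc6 with the Rangap1 bin 200 kb to the left had 163 and 184 in Erg KO, against 257, 217, 255 and 339 in the controls (-0.68 ± 0.10; adjusted p = 5.46e-07). Rnf168 with the bin of Tfrc and Tnk2, 400 kb to the right, had 81.5 and 84.1 against 134, 121, 112 and 195 (-0.86 ± 0.14; adjusted p = 7.15e-06). In each pair the Erg KO values lay below all controls. The pairs were picked by this same comparison in these libraries, so that separation is no further support.

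Contacts among the 29 member bins on different chromosomes were summed over 385 bin pairs. Observed over expected counts, given the contacts of each bin with other chromosomes, were 1.12 (95% exact Poisson interval 0.83 to 1.47, 50 read pairs) and 1.18 (0.90 to 1.53, 58 read pairs) in Erg KO. In CreT they were 1.40 (1.06 to 1.80) and 1.31 (1.01 to 1.66), and in Erg fl/fl 1.67 (1.22 to 2.23) and 1.43 (0.93 to 2.09). Bins of the same deciles by G+C content gave 1.07 to 1.09 in the 6 libraries. Both Erg KO ratios were below all 4 control ratios, and the intervals, which cover counting error only, overlapped between every Erg KO and control library. Among the end-joining members alone 0 and 3 read pairs were seen in Erg KO, against 3, 6, 3 and 4 in the controls, too few for a comparison.

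Another 47 genes of the same pathways were placed in the same way, all in bins of their own. Local contacts fell at 34 and rose at 3 (33.2% and 34.3% of all bins), the median log2 fold change being -0.36 and the median G+C content 44.9%. With the trend in G+C content removed, 20 fell and 2 rose (17.8% and 15.1% of all bins; median -0.12). By role, 10 of 13 end-joining, 6 of 10 sensing and 18 of 24 recombination, mismatch and excision genes fell, and 1 in each role rose. Paxx, which works with Ku at the ends, had 41.8 and 46.4 in Erg KO, against 70.3 and 65.7 in CreT and 64.9 and 88.0 in Erg fl/fl (-0.78 ± 0.07; edgeR, adjusted p = 4.77e-08). Atrip, the partner of the kinase Atr, changed by -0.65 ± 0.07 (adjusted p = 1.03e-07) and Rad51d, a gene of homologous recombination, by -0.61 ± 0.07 (adjusted p = 2.43e-07). The 3 that rose were Bard1, the partner of Brca1, with 52.8 and 50.8 in Erg KO against 42.9 and 47.2 in CreT and 42.8 and 39.8 in Erg fl/fl (0.28 ± 0.07; adjusted p = 6.56e-04), Wrn, a helicase (0.16 ± 0.07; adjusted p = 0.0435), and Xrcc2, also of homologous recombination (0.15 ± 0.06; adjusted p = 0.029). With the trend in G+C content removed, Paxx, Atrip and Rad51d were at -0.19, -0.20 and -0.30 and Xrcc2 at 0.29, all called (edgeR, adjusted p = 0.00845, 0.0108, 3.40e-04 and 2.26e-04). Bard1 at 0.15 and Wrn at -0.04 were not (adjusted p = 0.0667 and 0.701), and the sign of Wrn turned. Brca1 fell while Bard1 rose before that correction, and their bins held 43.9% and 40.0% G+C.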

How the data were processed

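Raw contact counts of 6 in situ Hi-C libraries were deposited by the authors, who trimmed reads, aligned them to mm10 and counted read pairs with diffHic in bins of about 100 kb, 1 library per file and with no normalisation. From these counts, local contacts, insulation and compartment scores were computed on 19 autosomes, keeping bins with 0.3 to 3 times the median total. Gene starts came from GENCODE M21, and promoter windows from RefSeq. Counts were tested with edgeR 4.0.16 (robust quasi-likelihood, TMM, group and sex) and log2 or scaled scores with limma 3.58.1, adjusted by Benjamini-Hochberg over all bins. DESeq2 1.42.0 was an alternative. Bin pairs needed at least 20 read pairs over all libraries (lowest summed count 21). They also needed 5 times the median abundance between chromosomes in 500 kb bins, and had loess offsets. The scripts were tested on simulated data with known changes: nearly all changed bins were called, while most bin pairs changed by a log2 of 1 or less were not.

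Members and gene lists were chosen with earlier results of these data known. Values in every library are given for members called in local contacts, insulation or compartment score and for the 3 largest increases and decreases in each; for bin pairs, the 10 called with the smallest p; and for other pathway genes, the 3 largest changes in each direction. Intervals cover counting error only.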

Additional observations from a re-analysis of the deposited data

How the results depend on the processing

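Of the 24 members called in local contacts, 20 stayed called in the same direction whichever library was left out, and Rnf8 and Blm under every alternative. Calls fell to 10 with offsets for G+C content and 10 with offsets for coverage against both controls, to 6 and 5 against CreT, and to 10 and 11 against Erg fl/fl. Against both controls 17.8% of all bins fell and 15.1% rose with the G+C offsets, and 18.7% and 20.1% with the coverage offsets. No such share is given for these offsets against a single control, or for the fits with a library left out or without the sex term. Those member counts cannot be set against one. With G+C offsets the sign turned at Nhej1 (0.11), Poll (0.13), Ercc1 (0.0207) and Msh6 (0.0549), none called. With scaling to all read pairs, which put the median of all bins at -0.39, 27 members fell and 0 rose, with no share of all bins given. Nbn was at -0.22 and Xrcc4 at 0.05, neither called. Among the 22 members called in insulation, the sign turned with the G+C trend removed at Xrcc4 (-0.11), Polm (0.19) and Ung (0.0558). The cause was not tested. Without the sex term 6 members were called against CreT and 0 in compartment score. Of the bin pairs 75 with a member were then called, beside 22403 of all pairs. DESeq2 called 0 member bin pairs and 4165 of all pairs, with 104 member pairs and 4.82% of all pairs at an unadjusted p below 0.05. The first component was the one chosen for every chromosome and library, so using it throughout gave identical compartment scores. Keeping the filter of 20 read pairs and dropping the abundance limit gave 134 called member bin pairs, beside 39281 of all pairs. This alternative was added after seeing the data.

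Leaving out 1 library gave 20 to 26 calls in local contacts against both controls, 16 to 23 against CreT, 19 to 24 against Erg fl/fl, 0 to 2 between the controls, 18 to 25 in insulation, 0 to 4 in compartment score and 0 to 136 bin pairs, and a difference between end-joining and recombination members of 0.0492 to 0.1032. No share of all bins called is given for these fits, so the member counts cannot be set against one. In local contacts against both controls the member median ran from -0.35 to -0.26. Without 1 male library the other is the only male, and the sex term then takes it out of the contrast too.

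Replicate numbers did not pair the libraries (correlations of replicate differences -0.18, 0.54 and -0.39), and in Erg KO and Erg fl/fl they coincide with sex. With the replicate block in place of sex, 19 members were called in local contacts against both controls (18 fell and 1 rose). Against CreT 13 were called (12 fell and 1 rose), against Erg fl/fl 18 (17 fell and 1 rose), and between the controls 0. In insulation 18 were called (17 fell and 1 rose) and in compartment score 0. No share of all bins called is given for these block fits, so the member counts cannot be set against one. Of the member bin pairs 74 were called (70 fell and 4 rose), beside 21584 of all pairs. The class difference was 0.07.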
